A study of Tachysurus fulvidraco x Tachysurus vachelli with 9 samples.

Results

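The glutathione, thioredoxin and methionine redox genes of hybrid yellow catfish, a cross of *Tachysurus fulvidraco* females with *Pseudobagrus vachellii* males, were followed in the posterior intestine through simulated transport and recovery. A gene was taken as a member if the table assigned it to the KEGG pathway of glutathione metabolism (00480), if its symbol was *chac1* or *msrb2*, or if its product was a peroxiredoxin, thioredoxin, glutaredoxin, superoxide dismutase, catalase or methionine sulfoxide reductase. Genes of the KEGG pathway of protein processing in the endoplasmic reticulum and aminopeptidases were left out. This gave 98 of the 26163 genes in the table. Of these members, 82 reached 1 FPKM (fragments scaled to gene length and library depth) in at least 3 of the 9 libraries and were tested, and 16 did not.

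RNA was sequenced from 3 fish of each of 3 groups of the hybrid. Ctrl fish were untreated and, by the paper, stood for the start of transport. Str fish were shaken in oxygen-filled transport bags for 16 h. Rec fish had 96 h in the conditions of the control tanks after the same 16 h of transport. Food was withheld before transport and feeding during recovery is not given. No control fish of the later times were sequenced. Transport and recovery thus cannot be told apart from differences in feeding or in time of sampling. Which bag each fish came from is also unknown here. All animals were a cross of 2 species whose reads were mapped to the genome of 1 of them, and alleles of the other parent were not counted separately.

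Glutathione is a small thiol peptide made by glutamate-cysteine ligase and glutathione synthetase and taken apart by gamma-glutamyltransferases and by the ChaC cyclotransferases. Glutathione peroxidases spend it on peroxides, and glutathione transferases attach it to reactive lipids and foreign compounds, which reach the gut with food and bile. The thioredoxin system runs in parallel on the same NADPH: thioredoxin reduces peroxiredoxins, which remove peroxides, and methionine sulfoxide reductases, which repair oxidized methionine. Superoxide dismutases stand upstream of both, since they turn superoxide into hydrogen peroxide.

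The deposited counts summed to between 48605412 and 73110636 per library. The lowest total was in Str-3 and the highest in Rec-2. The markers of absorptive enterocytes show that the samples held gut epithelium, among other tissue. Their summed level was 2006 to 7393 FPKM in Ctrl, 1333 to 2294 FPKM in Str, with 9705 to 22260 FPKM in Rec. The sum covered 12 loci, none of them at 0 in all libraries. Str was below Rec in every library, and Str-1 lay above Ctrl-2. Single loci carried much of the sum: *fabp6* reached 12067 FPKM in Rec-3, and apolipoprotein A-II LOC113649718 reached 4524 FPKM in Rec-2. Villin, *vil1*, had 193, 113 and 419 FPKM in Rec, which overlapped with Ctrl (153 to 242 FPKM) and with Str (98.0 to 120 FPKM). Against Ctrl, all 10 tested markers were positive in Rec and 0 were called (edgeR). Their median log2 fold change was 1.44, and that of *vil1* was 0.34. Summed liver markers were at 3.02 to 14.1 FPKM in Ctrl, 15.1 to 66.7 FPKM in Str, with 1.16 to 15 FPKM in Rec, small beside the enterocyte sum. In Str most of it was fibrinogen gamma, *fgg*, at 8.42 to 27.9 FPKM, and 1 alpha-2-HS-glycoprotein-like locus at 37.2 FPKM in Str-3. Fibrinogen alpha, *fga*, was at 0.131 to 0.451 FPKM in Ctrl and 1.59 to 1.86 FPKM in Str. Fibrinogen beta, *fgb*, was at 0 to 2.74 FPKM in Ctrl and 0.789 to 3.7 FPKM in Str. The beta-2-glycoprotein 1-like LOC113643451 reached 10.4 FPKM in Ctrl-3. The genes *f2*, *apoh*, *serpinc1*, *ambp*, *cp* and *ttr*, picked after the values were seen, were at 0.388 FPKM or below in every library. Summed red blood cell and smooth muscle markers overlapped between all groups. Among Ctrl libraries the smooth muscle sum ran from 5452 to 14410 FPKM, among Str from 3984 to 23020 and among Rec from 9781 to 17480. It exceeded the enterocyte sum in every library but Rec-3. In Str-3 it was 12430 against 1333 FPKM, and in Rec-3 it was 9781 against 22260 FPKM. The part of this balance of tissues in the redox results was not tested. Leukocyte markers were at 61.7 to 69 FPKM in Str and 64.3 to 170 FPKM in Ctrl. The 25 pancreatic enzyme loci summed to 368 FPKM in Ctrl-3 and to at most 29.7 FPKM in each other library (5 inhibitor loci that the list also took up are left out here). In whole intestine, fewer cells of a type and less RNA per cell cannot be told apart.

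Most of the redox genes that moved did so in either of 2 opposite ways. Of the glutathione transferases 8, with cytosolic and mitochondrial superoxide dismutase and 2 peroxiredoxins, rose from Str to Rec, while *chac1*, *ggt7*, an ornithine decarboxylase, a thioredoxin-interacting protein and extracellular superoxide dismutase fell. In Str vs. Ctrl, 3 of the 82 members tested rose (3.66%; 2.78% of all 17244 genes tested rose) and 5 fell (6.1%; 3.1% of all genes). In Rec vs. Str, 15 rose (18.3%, against 5.03% of all genes) and 5 fell (6.1%, against 4.11% of all genes). The rule named *chac1* and *msrb2* by symbol, and both are in these counts. *chac1*, among the 3 that rose in Str vs. Ctrl, was a member by its symbol alone. Members were chosen with earlier results of these data known, so the shares only describe the set. At the thresholds in the study's methods (log2 fold change of 1 or more in size, p below 0.05 without adjustment), 6 rose and 11 fell in Str vs. Ctrl (7.32% and 9.83% of all genes), 29 rose and 7 fell in the comparison of Rec with Str (11.3% and 8.83%), and 14 rose and 1 fell in that of Rec with Ctrl (2.49% and 1.52%). Str lay above Ctrl in every library for 10 members (14.4% of all genes) and below it for 22 (16.1%), and Rec lay above Str for 23 (11.8%) and below it for 11 (17.2%). With DESeq2 the counts were 8 that rose and 8 that fell in Str vs. Ctrl (6.54% and 8.19% of all genes) and 25 and 8 in Rec vs. Str (10.4% and 8.13%). A member is said to rise or fall where its adjusted p (Benjamini-Hochberg over all genes tested) in edgeR's quasi-likelihood test, two-sided, was below 0.05, and both comparisons share the Str libraries.

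The median log2 fold change of the 82 members was -0.30 for Str vs. Ctrl. It was 0.60 when Rec was compared with Str and 0.35 when it was compared with Ctrl. Over all genes tested the medians were -0.002, 0.03 and 0.004. On the FPKM scale the fit by limma moved the median of all genes in Rec vs. Str to -0.09 and that of the members to 0.36. Without Ctrl-1 the members' median in Str vs. Ctrl was -0.051, while that of all genes was 0.083, and the members' median for Rec against Ctrl was 0.56. For Rec against Str it was 0.90 without Rec-1 and 0.36 without Rec-3, with 0.011 and -0.019 over all genes. In Rec vs. Str the count that rose was 4 without Str-3 or without Rec-2 and 21 without Rec-1, and over all genes it went from 868 to 114, 278 and 846 in these fits. In Str vs. Ctrl 1 member rose and 1 fell without Ctrl-2, as did 122 and 158 of all genes, down from 480 and 534. No named member that was called reversed its sign under an alternative.

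**Figure D1:**
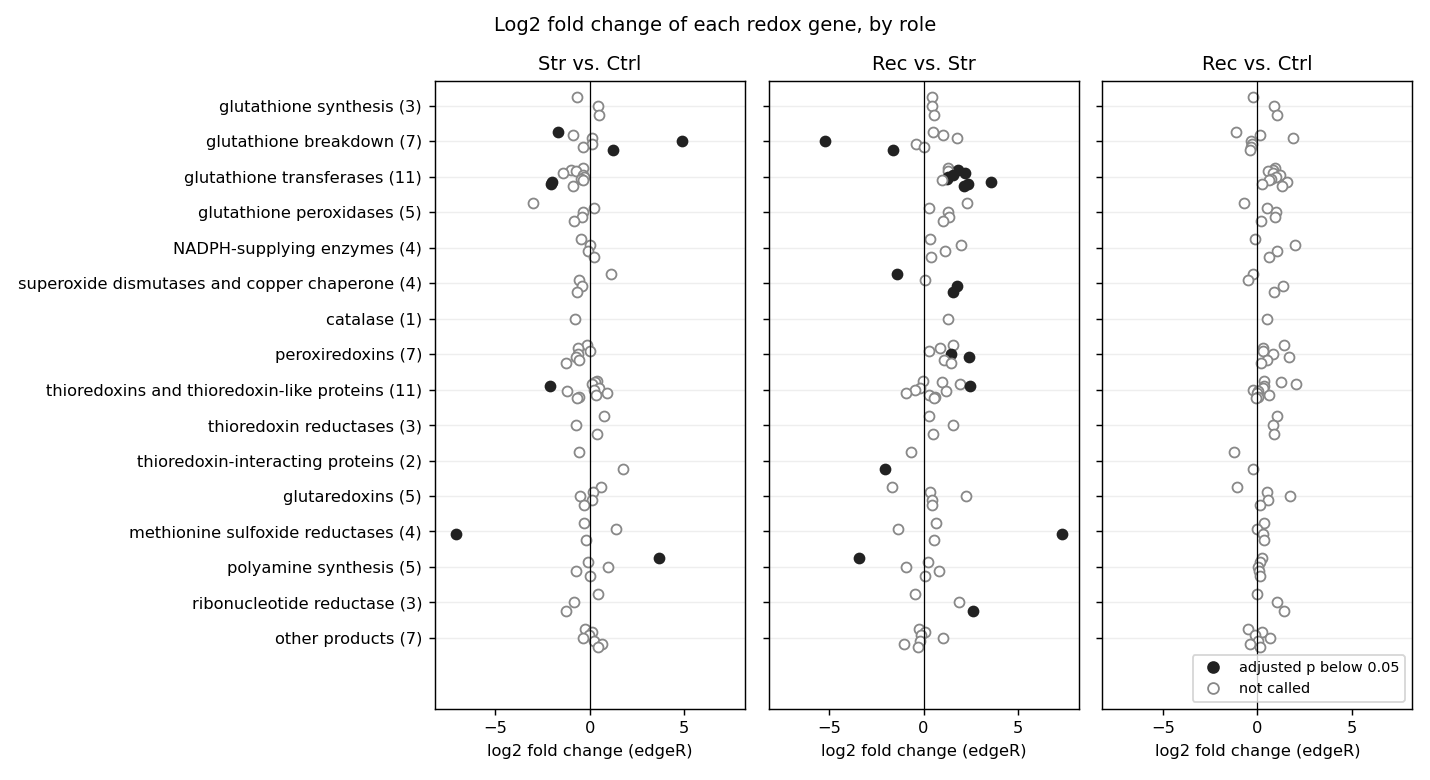
Log2 fold change from edgeR (x axis) of each of the 82 tested redox genes in the 3 comparisons, grouped by role (rows, with the number tested). Filled points passed an adjusted p of 0.05: 8 in Str vs. Ctrl, 20 in Rec vs. Str and 0 for Rec against Ctrl. All 11 glutathione transferases lie left of 0 in Str vs. Ctrl and right of it in Rec vs. Str.

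No member passed the test in Rec vs. Ctrl, and neither did any of the 17244 genes (0.0%, rising or falling) in edgeR. At an unadjusted p below 0.05 there were 19 members (23.2%, against 5.81% of all genes), 18 higher and 1 lower in Rec. DESeq2 called 4 members higher, *prdx3*, *gstp1*, *sod1* and *idh1*, and 0 lower (0.47% and 0.197% of all genes). All libraries of Rec lay above all of Ctrl for 11 members (2.56% of all genes did) and below them for 5 (7.42% of all genes). Of these 11, 6 were glutathione transferases, 2 superoxide dismutases and 2 peroxiredoxins.

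The composition of the set shifted as well. Of the summed FPKM of all 98 members, the 2 thioredoxin-interacting proteins made up 9.29% to 21.8% in Ctrl, 28.1% to 50.8% in Str and 6.67% to 8.89% in Rec. Glutathione transferases held 14.8% to 17.3% in Ctrl, 7.63% to 9.3% in Str and 19.8% to 22.9% in Rec, and peroxiredoxins held 26.6% to 38.5%, 15.8% to 19.1% and 22.8% to 37.8%. The shares add up within a library, so a larger share of one class lowers the others. By their mean over the 9 libraries, the most abundant members were the thioredoxin-interacting protein-like LOC113662807 (1046 FPKM), peroxiredoxin-6 LOC113658712 (746 FPKM) and thioredoxin-like LOC113663147 (497 FPKM).

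Glutathione breakdown held the largest rise in Str vs. Ctrl among the called members. *chac1* encodes a cyclotransferase that cleaves glutathione inside the cell and is known in mammals as a target of the stress factor ATF4. It stands on scaffold NW_020848012.1 at 79164 to 80904, plus strand (build not given in the sources used here). Its level was 6.49, 6.16 and 7.62 FPKM in Ctrl, 231, 188 and 156 FPKM in Str, and 4.44, 2.99 and 7.47 FPKM in Rec. Every Str library was far above every other library, while Ctrl and Rec overlapped. The log2 fold change was 4.87 ± 0.36 (SE) in Str vs. Ctrl (29.2-fold, edgeR adjusted p = 0.00155) and -5.20 ± 0.37 in Rec vs. Str (adjusted p = 0.00104). Both calls held under all alternatives run. The KEGG column of the table gives this row the terpenoid pathway of another enzyme, so it entered by its symbol.

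*ggt7*, a member of the gamma-glutamyltransferase family of membrane proteins, moved like *chac1* at a low level. It was at 1.88, 3.12 and 3.22 FPKM in Ctrl, 4.92, 6.0 and 7.32 FPKM in Str, and 2.38, 1.41 and 1.79 FPKM in Rec. The Str libraries stood above all others. The log2 fold change was 1.22 ± 0.28 in Str vs. Ctrl (adjusted p = 0.0363, edgeR) and -1.60 ± 0.28 in Rec vs. Str (adjusted p = 0.0139). The former call was lost in 6 of the 9 fits that left out a library (adjusted p up to 0.135, without Str-3) and the latter without Str-3 or Rec-2 (up to 0.0577).

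A row that merges the gamma-glutamyltranspeptidase 1-like loci LOC113638876 and LOC113638869, of the enzyme family that cleaves extracellular glutathione, went the other way in transport. It was at 6.30, 15.5 and 16.3 FPKM in Ctrl, 3.53, 3.95 and 3.82 FPKM in Str, and 5.40, 2.60 and 7.32 FPKM in Rec. All Str libraries were below all Ctrl libraries, and in Rec they overlapped with Str. It fell by 1.65 on the log2 scale in Str vs. Ctrl (adjusted p = 0.0324, edgeR) and was at 0.50 in Rec vs. Str (adjusted p = 0.412). Reads of the merged loci cannot be assigned to a single gene, and the call was lost without Ctrl-2, Ctrl-3 or any 1 of the Str libraries (adjusted p up to 0.119). The remaining 4 tested genes of breakdown, *ggct*, *ggt6*, LOC113657872 and LOC113639305, had adjusted p-values of at least 0.105 in both comparisons with Str (edgeR). DESeq2 called LOC113639305 in Rec vs. Str (adjusted p = 0.0481).

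**Figure D2:**
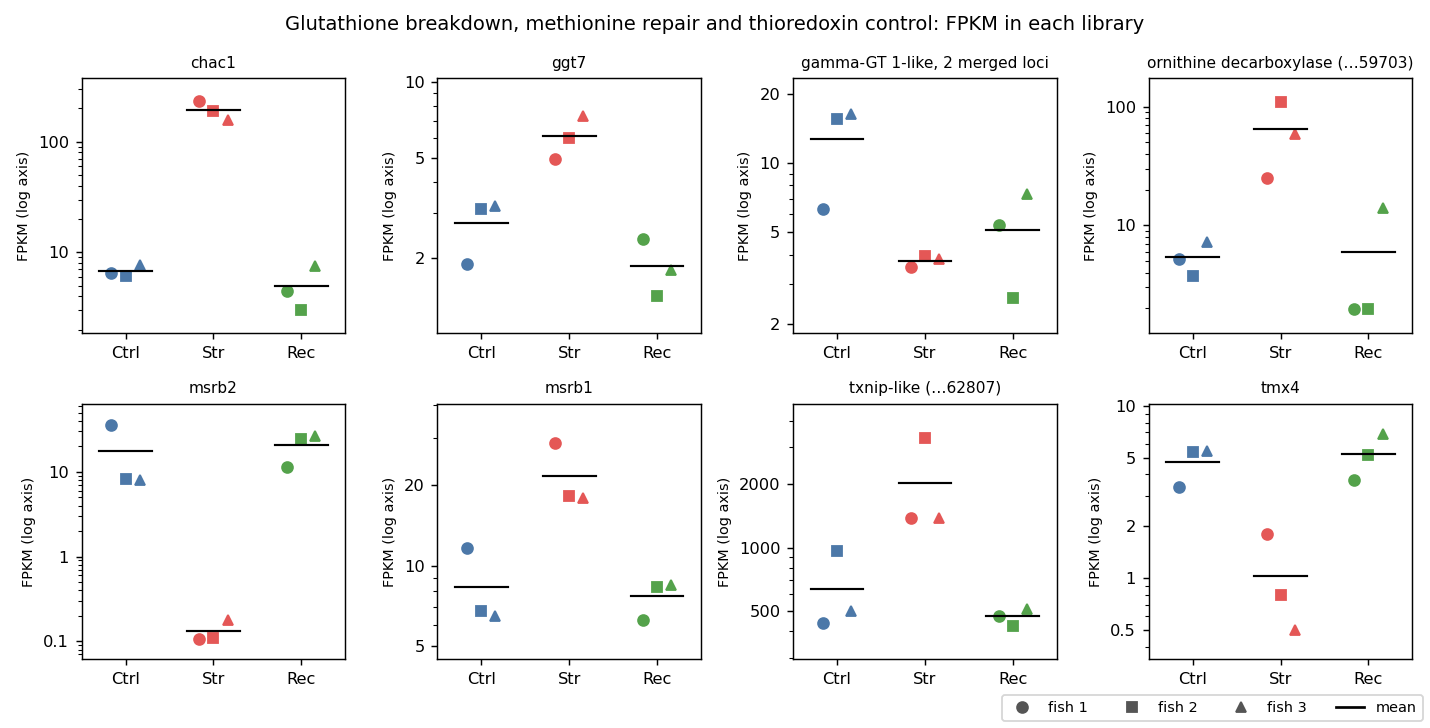
FPKM (y axis, log scale) in each of the 3 libraries of Ctrl, Str and Rec for 8 redox genes of glutathione breakdown, polyamine synthesis, methionine repair and thioredoxin control; marker shapes are the replicate numbers and bars the group means. *chac1* runs from 156 to 231 FPKM in Str and stays below 8 FPKM elsewhere, and *msrb2* stays below 0.2 FPKM in Str.

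None of the 3 genes of glutathione synthesis passed a test. The catalytic subunit of glutamate-cysteine ligase, *gclc*, was at 12.6, 16.5 and 18.5 FPKM in Ctrl, 9.58, 8.64 and 10.6 FPKM in Str, and 7.98, 9.49 and 19.1 FPKM in Rec. All Str libraries lay below Ctrl, and Rec spanned both groups (Str vs. Ctrl log2 fold change -0.66 ± 0.29, adjusted p = 0.214, edgeR). The regulatory subunit *gclm* was at 3.97, 4.09 and 5.42 FPKM in Ctrl, 5.84, 4.93 and 7.03 FPKM in Str, and 2.16, 5.18 and 15.7 FPKM in Rec. The ratio of *gclc* to *gclm* per length was therefore 3.17 to 4.02 in Ctrl and 1.5 to 1.75 in Str, without overlap, and 1.22 to 3.69 in Rec. This ratio was chosen after the values were seen and carries no test, and 3 libraries against 3 could not give an exact two-sided permutation p below 0.1. Glutathione synthetase, *gss*, had adjusted p-values of 0.596 and 0.509, and its highest library was Rec-3 with 24.2 FPKM.

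The glutathione transferases were the largest group that moved one way. In Rec vs. Str, 8 of 11 tested rose, and in 10 of 11 every Rec library lay above every Str library, which was so for 11.8% of all genes. Their log2 fold changes ran from 0.97 to 3.58, with a median of 1.57. In Str vs. Ctrl all 11 were negative, from -2.07 to -0.30, and 2 fell. Summed over the 12 loci, the level was 737 ± 76.8 FPKM (SD, n = 3) in Ctrl, 457 ± 48.4 FPKM in Str and 1401 ± 292 FPKM in Rec.

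**Figure D3:**
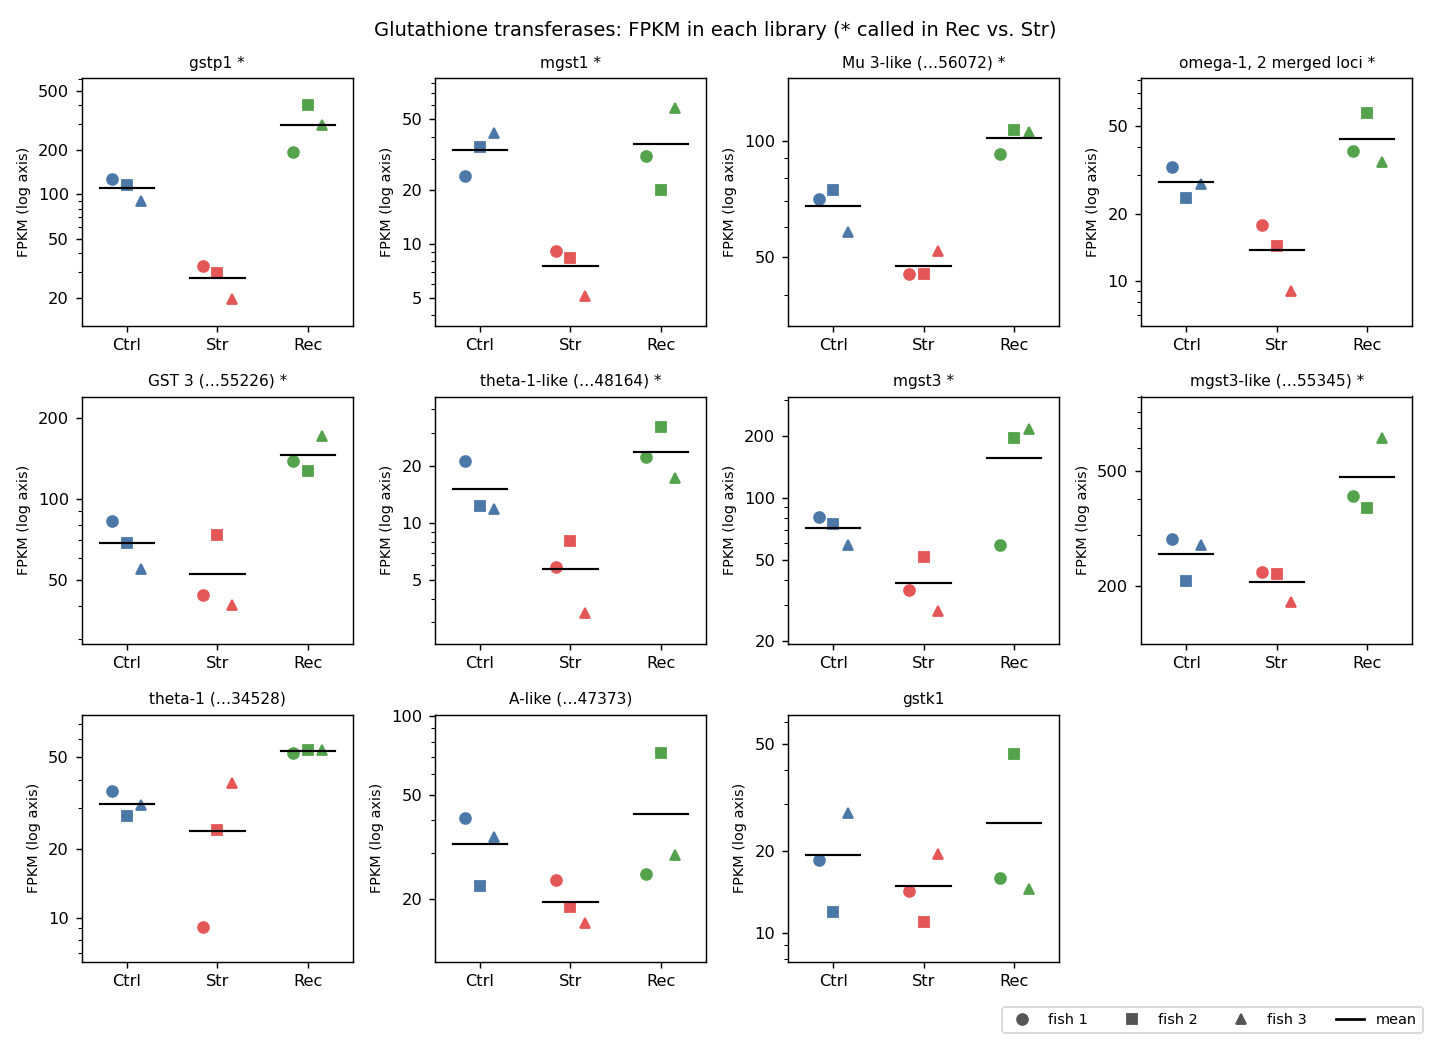
FPKM (y axis, log scale) of the 11 tested glutathione transferases in each library of Ctrl, Str and Rec; marker shapes are the replicate numbers, bars the group means, and an asterisk marks the 8 that rose in Rec vs. Str. In all but *gstk1* the 3 Rec libraries stand above the 3 Str libraries.

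*gstp1*, the pi-class transferase of the cytosol, changed most among them in Rec vs. Str. It was at 126, 116 and 89.7 FPKM in Ctrl, 32.9, 29.4 and 19.7 FPKM in Str, and 193, 400 and 293 FPKM in Rec. The groups did not overlap in any pair, with Str lowest and Rec highest. It fell by 1.99 on the log2 scale in Str vs. Ctrl (SE 0.41, adjusted p = 0.0263, edgeR) and rose 11.9-fold in Rec vs. Str (log2 fold change 3.58 ± 0.44, adjusted p = 0.00717). The fall was lost without any 1 of the Ctrl or Str libraries (adjusted p up to 0.108, without Str-3), while the rise held under all alternatives run. In Rec vs. Ctrl its log2 fold change was 1.58 (adjusted p = 0.812, edgeR).

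*mgst1*, a transferase anchored in membranes of the endoplasmic reticulum and mitochondria, fell and rose back. It was at 23.9, 34.9 and 41.7 FPKM in Ctrl, 9.08, 8.39 and 5.11 FPKM in Str, and 31.2, 20.1 and 57.8 FPKM in Rec. Str lay below both other groups, which overlapped with each other. The log2 fold change was -2.07 ± 0.37 in Str vs. Ctrl (adjusted p = 0.0168, edgeR) and 2.33 ± 0.37 in Rec vs. Str (adjusted p = 0.0108). The fall was lost without Ctrl-2, Ctrl-3 or Str-3 (adjusted p up to 0.0689).

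The related *mgst3* was at 80.4, 74.2 and 58.8 FPKM in Ctrl, 35.5, 51.8 and 28.1 FPKM in Str, and 58.7, 195 and 216 FPKM in Rec. Rec-1 was no higher than the lowest Ctrl library, and Rec-2 and Rec-3 were far above it. It rose in Rec vs. Str by a log2 fold change of 2.14 ± 0.50 (adjusted p = 0.033, edgeR). The call was lost without Ctrl-2, Rec-2, Rec-3 or any 1 of the Str libraries (adjusted p up to 0.124, without Str-3). It held in 5 of the 8 other alternatives. The second locus of this name, LOC113655345, was the most abundant transferase, with 290, 209 and 276 FPKM in Ctrl, 224, 220 and 175 FPKM in Str, and 409, 373 and 650 FPKM in Rec. It rose in Rec vs. Str (log2 fold change 1.3 ± 0.31, adjusted p = 0.036, edgeR), and its Ctrl and Str libraries overlapped. This call was lost without Ctrl-3, Rec-2, Rec-3 or any 1 of the Str libraries (adjusted p up to 0.136, without Str-3). It also held in 5 of the 8 other alternatives.

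The other 4 that rose in Rec vs. Str were the theta-1-like LOC113648164 (log2 fold change 2.20, adjusted p = 0.0304, edgeR), a row that merges the omega-1 loci LOC113636306 and LOC113636307 (1.81, adjusted p = 0.0267), glutathione S-transferase 3 LOC113655226 (1.57, adjusted p = 0.0281) and the Mu 3-like LOC113656072 (1.22, adjusted p = 0.0258). LOC113656072 had a narrow spread, with 58.1 to 74.5 FPKM in Ctrl, 45.2 to 51.9 FPKM in Str, with 92.6 to 107 FPKM in Rec, and no pair of groups overlapped. Its call was lost without Str-1, Str-2, Str-3 or Rec-2 (adjusted p up to 0.0866, without Str-3). Those of LOC113648164 and LOC113655226 were lost without Str-1, Str-3 or Rec-2 (up to 0.106 and 0.109). That of the merged omega-1 row was lost without Str-2, Str-3 or Rec-2 (up to 0.0987). Of the 3 that did not pass in edgeR, theta-1 LOC113634528 was at 52.3, 53.9 and 54.1 FPKM in Rec against 9.12, 24.1 and 38.5 FPKM in Str. DESeq2 called this rise (adjusted p = 0.039). The kappa-class *gstk1* of mitochondria and peroxisomes overlapped between all groups, and the A-like LOC113647373 had an adjusted p of 0.136 (edgeR).

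When single libraries were left out, the count of transferases that rose in Rec vs. Str was 2 (Str-3 or Rec-2 left out), 3 (Str-1), 4 (Str-2), 6 (Rec-3) or 7 (Ctrl-2 or Ctrl-3), and all 11 stayed positive in each of these fits. The enterocyte markers moved alongside: the median log2 fold change of the 10 tested was -1.46 in Str vs. Ctrl, where 0 were called, and 2.57 in Rec vs. Str, where 5 rose. The part of enterocyte number in the levels of the transferases was not tested. Near-identical copies of these gene families can share reads, and the theta, omega and microsomal loci are uncertain to that degree.

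Glutathione peroxidases remained below the threshold in every comparison of edgeR (5 tested, lowest adjusted p 0.0666 in Str vs. Ctrl and 0.0729 in Rec vs. Str), while DESeq2 called 1 in Str vs. Ctrl and 2 in Rec vs. Str. *gpx4*, which removes lipid peroxides from membranes, was at 126, 68.8 and 94.2 FPKM in Ctrl, 104, 61.3 and 62.6 FPKM in Str, and 124, 204 and 185 FPKM in Rec. The Rec libraries were all above the Str libraries, and the Rec vs. Str log2 fold change was 1.31 ± 0.40 (adjusted p = 0.0729). The glutathione peroxidase 1-like LOC113648572, of the family of soluble peroxidases, was at 5.79, 3.94 and 17.5 FPKM in Ctrl, 1.47, 1.33 and 0.331 FPKM in Str, and 3.82, 1.55 and 10.2 FPKM in Rec. It was lowest in Str without overlap, with a log2 fold change of -3.01 ± 0.84 (adjusted p = 0.0666) that DESeq2 called. The secreted *gpx3*, at 38.8 to 158 FPKM, overlapped between all groups.

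Of the 4 enzymes that supply NADPH, none passed in edgeR and 1, *idh1*, in DESeq2. Cytosolic isocitrate dehydrogenase, *idh1*, was at 8.38, 8.26 and 13.9 FPKM in Ctrl, 10.6, 7.38 and 12.1 FPKM in Str, and 14.5, 20.3 and 79.8 FPKM in Rec. All Rec libraries were above the others, and Rec-3 was 3.93 times the next highest library. Its Rec vs. Str log2 fold change was 1.98 ± 0.55 (adjusted p = 0.0542 in edgeR and 0.00328 in DESeq2). In the pentose phosphate pathway, *pgd* was at 127 FPKM in Rec-3 and between 26.1 and 58.8 FPKM in the other 8 libraries. No member was described as glutathione reductase.

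The superoxide dismutases separated by compartment in recovery. *sod1*, the copper-zinc enzyme of the cytosol, was at 115, 74.7 and 89.1 FPKM in Ctrl, 80.4, 70.0 and 59.6 FPKM in Str, and 153, 230 and 269 FPKM in Rec. Rec lay above both other groups, and Ctrl and Str overlapped. It rose in Rec vs. Str (log2 fold change 1.75 ± 0.34, 3.37-fold, adjusted p = 0.0197, edgeR). *sod2*, the manganese enzyme of mitochondria, was at 26.8, 24 and 27.5 FPKM in Ctrl, 19.9, 17.5 and 10.6 FPKM in Str, and 30.1, 51.5 and 46.9 FPKM in Rec. No pair of groups overlapped, and it rose in Rec vs. Str (1.55 ± 0.35, adjusted p = 0.0282).

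The extracellular copper-zinc enzyme, LOC113649315, ran in the opposite direction. It was at 7.55, 10.7 and 14.1 FPKM in Ctrl, 24.4, 15.8 and 27.2 FPKM in Str, and 9.48, 7.29 and 6.87 FPKM in Rec. The Str libraries were the 3 highest of all. Its log2 fold change was 1.13 ± 0.29 in Str vs. Ctrl (adjusted p = 0.0506 in edgeR and 0.00628 in DESeq2). It fell by 1.38 in Rec vs. Str (adjusted p = 0.0234, edgeR). The ratio of *sod1* to the extracellular enzyme per length was 6.33 to 15.3 in Ctrl, 2.20 to 4.43 in Str and 16.2 to 39.2 in Rec, without overlap (a ratio chosen after the values were seen). By contrast the ratio of *sod1* to *sod2* stayed between 3.12 and 5.75 in all 9 libraries.

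The calls of *sod1* and *sod2* were lost without Str-2, Str-3 or Rec-2 (adjusted p up to 0.0854 and 0.0996), that of *sod2* also without Str-1, and that of LOC113649315 without Str-1, Str-3 or Rec-2 (up to 0.0885). The copper chaperone *ccs*, which loads *sod1*, was at 11.8 to 19.5 FPKM in Ctrl, 9.93 to 10.5 FPKM in Str, with 6.79 to 16.1 FPKM in Rec. It did not rise with *sod1* (Rec vs. Str log2 fold change 0.09 ± 0.39, adjusted p = 0.918, edgeR). Catalase, *cat*, which breaks down hydrogen peroxide in peroxisomes, was at 115, 82.2 and 108 FPKM in Ctrl, 19.9, 113 and 37.7 FPKM in Str, and 183, 107 and 100 FPKM in Rec. Str-1 and Str-3 were below every other library while Str-2 was at the level of Ctrl, and no comparison passed (adjusted p = 0.488, 0.214 and 0.947).

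**Figure D4:**
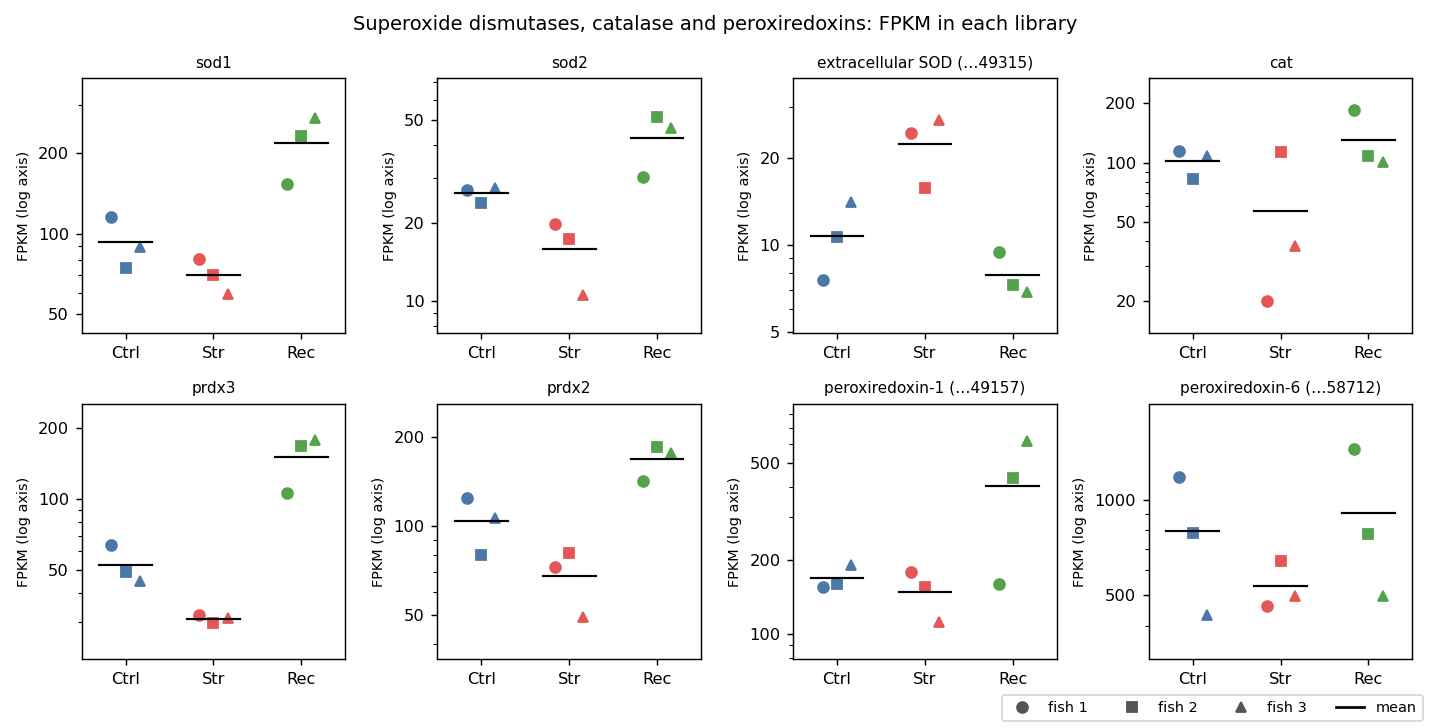
FPKM (y axis, log scale) of 3 superoxide dismutases, catalase and 4 peroxiredoxins in each library of Ctrl, Str and Rec; marker shapes are the replicate numbers and bars the group means. *sod1*, *sod2*, *prdx3* and *prdx2* stand higher in all 3 Rec libraries than in all Str libraries, and extracellular superoxide dismutase stands lower.

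Of the 7 peroxiredoxins, 2 rose in Rec vs. Str (28.6%, against 5.03% of all genes) and all 7 were positive. *prdx3*, the mitochondrial peroxiredoxin, was at 63.8, 49.0 and 44.7 FPKM in Ctrl, 32.2, 29.7 and 31.3 FPKM in Str, and 106, 168 and 178 FPKM in Rec. Str was lowest and Rec highest with no overlap, and the rise in Rec vs. Str was 5.30-fold (log2 fold change 2.41 ± 0.33, adjusted p = 0.00821, edgeR), a call that held under all alternatives run. *prdx2*, a cytosolic enzyme abundant in red blood cells, was at 124, 79.8 and 107 FPKM in Ctrl, 72.7, 81.1 and 49.4 FPKM in Str, and 142, 185 and 176 FPKM in Rec, and rose in Rec vs. Str (1.43 ± 0.34, adjusted p = 0.0359, up to 0.13 without Str-3, and also lost without Ctrl-3, Str-1, Str-2 or Rec-2). Summed red blood cell markers were at 87.9 to 409 FPKM in Str and 81.3 to 1827 FPKM in Rec, and their part in this result was not tested.

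Peroxiredoxin-1, LOC113649157, split the recovered fish. It was at 155 to 192 FPKM in Ctrl, 112 to 179 FPKM in Str, with 159, 435 and 617 FPKM in Rec. Rec-1 was at the level of Ctrl and Str. In Rec vs. Str the log2 fold change was 1.55 ± 0.45 (adjusted p = 0.0647 in edgeR and 0.00463 in DESeq2). Peroxiredoxin-6, LOC113658712, the most abundant of the family, was at 1175, 783 and 435 FPKM in Ctrl, 461, 639 and 498 FPKM in Str, and 1447, 779 and 497 FPKM in Rec. Its groups overlapped. *prdx5* was at 302, 212 and 246 FPKM in Ctrl, 157, 88.6 and 75.8 FPKM in Str, and 163, 439 and 156 FPKM in Rec. All its Str libraries lay below Ctrl (log2 fold change -1.23, adjusted p = 0.209, edgeR), and Rec overlapped with both. Its rise in Rec vs. Str was called by DESeq2 (adjusted p = 0.0342) but not by edgeR (adjusted p = 0.127). *prdx4*, the peroxiredoxin of the endoplasmic reticulum, also lay lower in all Str libraries (25.6 to 51.0 FPKM) than in Ctrl (59.3 to 68.5 FPKM). Neither it nor the low peroxiredoxin-6-like LOC113662253 was called.

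Among thioredoxins and thioredoxin-like proteins, 1 of 11 passed in edgeR. DESeq2 also called *txndc17* and *txndc9* in both comparisons with Str and *agr2* in Rec vs. Str (adjusted p = 0.0261 to 0.0461). *tmx4*, a thioredoxin-related membrane protein of the endoplasmic reticulum, was at 3.38, 5.38 and 5.46 FPKM in Ctrl, 1.80, 0.793 and 0.502 FPKM in Str, and 3.70, 5.20 and 6.89 FPKM in Rec. Str was below all other libraries. It fell by 2.12 on the log2 scale in Str vs. Ctrl (adjusted p = 0.033, edgeR) and rose by 2.45 in Rec vs. Str (adjusted p = 0.0186). The fall was lost in 5 of the 9 fits that left out a library (adjusted p up to 0.1, without Ctrl-3) and the rise without Str-2, Str-3 or Rec-2 (up to 0.0572).

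The thioredoxin-like LOC113663147, the most abundant thioredoxin, was at 381, 282 and 357 FPKM in Ctrl, 494, 237 and 517 FPKM in Str, and 340, 939 and 926 FPKM in Rec. Rec-2 and Rec-3 were the highest libraries and Rec-1 was within Ctrl, with an adjusted p of 0.232 in Rec vs. Str (edgeR). *txndc17*, a small cytosolic thioredoxin-like protein, was lower in Str (30.3 to 57.7 FPKM) than in Ctrl (79.2 to 130 FPKM) without overlap (adjusted p = 0.12), and *txndc9*, which acts with a chaperonin in protein folding, was higher in Str (26.5 to 36.0 FPKM) than in Ctrl (14.9 to 22.5 FPKM; adjusted p = 0.105). *agr2*, a disulfide isomerase relative of goblet cells, was at 709 FPKM in Rec-3 and at 44.9 to 124 FPKM in the other 8 libraries.

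Thioredoxin-interacting protein binds thioredoxin and restrains it, and in mammals it also limits glucose uptake. The thioredoxin-interacting protein-like LOC113662807 was at 438, 964 and 498 FPKM in Ctrl, 1386, 3330 and 1385 FPKM in Str, and 476, 426 and 512 FPKM in Rec. The Str libraries were the 3 highest, with Str-2 far above the others. Its log2 fold change in Str vs. Ctrl was 1.77 ± 0.47 (adjusted p = 0.0575 in edgeR and 0.00074 in DESeq2). It fell by 2.01 in Rec vs. Str (adjusted p = 0.0324, edgeR, up to 0.088 without Rec-2), a call lost in 6 of the 9 fits that left out a library. The ratio of LOC113662807 to thioredoxin-like LOC113663147 was 1.15 to 3.42 in Ctrl, 2.68 to 14 in Str and 0.454 to 1.40 in Rec, so Str and Rec did not overlap (a ratio chosen after the values were seen). The second locus, LOC113644183, was at 4.85 to 30.017 FPKM and was not called.

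The thioredoxin reductases, which pass electrons from NADPH to thioredoxin, gave no call (3 tested). *txnrd3* was at 14.2 to 24.5 FPKM in Ctrl, 14.2 to 31.0 FPKM in Str, with 13, 17 and 73.4 FPKM in Rec, the last in Rec-3. Neighbouring rows LOC113663897 and *txnrd2* are both described as the mitochondrial enzyme and may be parts of 1 gene. LOC113663897 was higher in Str (5.97 to 7.09 FPKM) than in Ctrl (2.87 to 4.67 FPKM) without overlap (adjusted p = 0.183, edgeR), as were 14.4% of all genes. *txnrd2* leaned the other way with overlap, at 0.371 to 4.79 FPKM in Ctrl and 0.967 to 1.77 FPKM in Str (log2 fold change -0.74). None of the 5 tested glutaredoxins, which reduce mixed disulfides with glutathione, was called. The leading one, *glrx*, was at 111 to 215 FPKM in all libraries, and *glrx2* was at 6.17 FPKM in Rec-3 and at most 1.89 FPKM elsewhere.

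The methionine sulfoxide reductases held the largest fall among the called members. *msrb2*, the mitochondrial reductase of the R form of methionine sulfoxide, stands on scaffold NW_020847769.1 at 7174926 to 7181903, plus strand. It was at 36.1, 8.25 and 7.94 FPKM in Ctrl, 0.107, 0.111 and 0.180 FPKM in Str, and 11.4, 24.4 and 26.6 FPKM in Rec. All Str libraries were near 0, and Ctrl and Rec overlapped. The deposited counts were 8, 8 and 11 in Str, and since 1 read pair is mostly worth 4 counts in this table, each Str library held fewer than 3 pairs. Over the groups, 962 pairs in Ctrl stood against 7 in Str, a ratio of 120 after scaling (95% exact interval 57.9 to 298), and 1189 pairs in Rec against the same 7, a ratio of 163 (78.9 to 407). These intervals cover counting error only, not the spread between fish, and treat pairs as independent molecules. Of the 962 pairs in Ctrl, 672.5 came from Ctrl-1 alone.

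In edgeR the log2 fold change of *msrb2* was -7.04 ± 0.90 in Str vs. Ctrl (adjusted p = 0.0069) and 7.34 ± 0.91 in Rec vs. Str (adjusted p = 0.00717). At counts this low the fitted value depends on the prior count. Both calls held under all alternatives run. Ctrl-1 stood far above the other Ctrl libraries, and without it the log2 fold change in Str vs. Ctrl was -5.63 (adjusted p = 0.0134).

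The other reductases did not share this fall. *msrb1*, the cytosolic and nuclear form, which is a selenoprotein in mammals, was at 11.6, 6.76 and 6.49 FPKM in Ctrl, 28.7, 18.3 and 17.8 FPKM in Str, and 6.25, 8.28 and 8.44 FPKM in Rec. Its Str libraries were the 3 highest, opposite to *msrb2*, but neither test passed in edgeR, while DESeq2 called both (log2 fold change 1.37 ± 0.40, adjusted p = 0.0786 in Str vs. Ctrl, and -1.37 ± 0.40, adjusted p = 0.0652 in Rec vs. Str, edgeR). *msrb3*, at 12.7 to 30.4 FPKM, and *msra*, the reductase of the S form, at 9.20 to 32.2 FPKM, overlapped between all groups.

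The KEGG pathway also holds polyamine synthesis, since trypanosomes join spermidine to glutathione, and ribonucleotide reductase, which takes electrons from glutaredoxin and thioredoxin. Ornithine decarboxylase LOC113659703, the first enzyme of polyamine synthesis, was at 5.16, 3.73 and 7.18 FPKM in Ctrl, 25.1, 109 and 58.8 FPKM in Str, and 1.96, 1.96 and 14 FPKM in Rec. The Str libraries were above all others. It rose 12.5-fold in Str vs. Ctrl (log2 fold change 3.65 ± 0.84, adjusted p = 0.0372, edgeR) and fell by 3.43 in Rec vs. Str (adjusted p = 0.036). The rise was lost in 5 of the 9 fits that left out a library (adjusted p up to 0.129, without Ctrl-2) and the fall in 7 (up to 0.105, without Rec-2), and the nearby ornithine decarboxylase loci LOC113659677 and LOC113659678 were below the filter.

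The antizyme inhibitor 1-like LOC113661535, which protects ornithine decarboxylase from decay, was at 57.5 to 87.6 FPKM in Ctrl, 132 to 142 FPKM in Str, with 53.4 to 81.7 FPKM in Rec. Its Str libraries were the 3 highest, just short of the threshold in edgeR (log2 fold change 0.97, adjusted p = 0.0599, and -0.94, adjusted p = 0.0528). DESeq2 called both changes (adjusted p = 0.00046 and 0.00075). The small subunit of ribonucleotide reductase that cycles with DNA synthesis, *rrm2*, was at 2.31 to 3.48 FPKM in Ctrl, 0.777 to 1.56 FPKM in Str, with 2.48, 9.54 and 8.06 FPKM in Rec. Str was lowest without overlap, and *rrm2* rose in Rec vs. Str (log2 fold change 2.63 ± 0.54, adjusted p = 0.0221, up to 0.0871 without Str-3, and also lost without Str-1 or Rec-2). The large subunit *rrm1* had an adjusted p of 0.0535 in edgeR and 0.00505 in DESeq2 in that comparison. The M2 B-like subunit LOC113661539 ran the other way, at 13.2 to 20.3 FPKM in Str and 10.1 to 11.5 FPKM in Rec. All its Rec libraries lay below Str (log2 fold change -0.46, adjusted p = 0.28, edgeR).

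A further 12 members carry products outside this chemistry and entered through the KEGG column alone, among them ubiquitin ligases (*rnf34*, *rffl*) and a mediator subunit (*med28*). Of these, 7 were tested and 0 were called, with log2 fold changes between -1.04 and 1.02 in Rec vs. Str. *rnf34* was at 11.6 to 18.4 FPKM in all libraries. Without these 12, 15 of 75 members rose in Rec vs. Str, with a median log2 fold change of 0.84. The 16 members below the filter had means of at most 0.65 FPKM and included *gpx2*, the peroxidase named for the gut in mammals, at up to 0.552 FPKM, and *oplah*, which recycles oxoproline, the product of the reaction of *chac1*, at up to 0.881 FPKM.

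The recovered fish differed among themselves. Rec-3 held the highest value of all 9 libraries in 38 of the 82 tested members (46.3%), against 16.5% of all genes tested. These included 5 of 11 transferases and all 3 genes of glutathione synthesis, all 3 thioredoxin reductases and 3 of the 4 NADPH-supplying enzymes. Rec-2 held the highest value in 14 members (17.1%, against 6.27% of all genes). Rec-1, by contrast, was the lowest of 9 in 19 members (23.2%, against 12% of all genes). Str-3 was the lowest in as many (23.2%, against 14.3% of all genes). Without Rec-3, 13 members rose and 4 fell in Rec vs. Str, as did 833 and 692 of all genes (868 and 709 with all libraries). The members' median log2 fold change was then 0.36 against Str and 0.13 against Ctrl. That of all genes was -0.019 and -0.015.

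**Figure D5:**
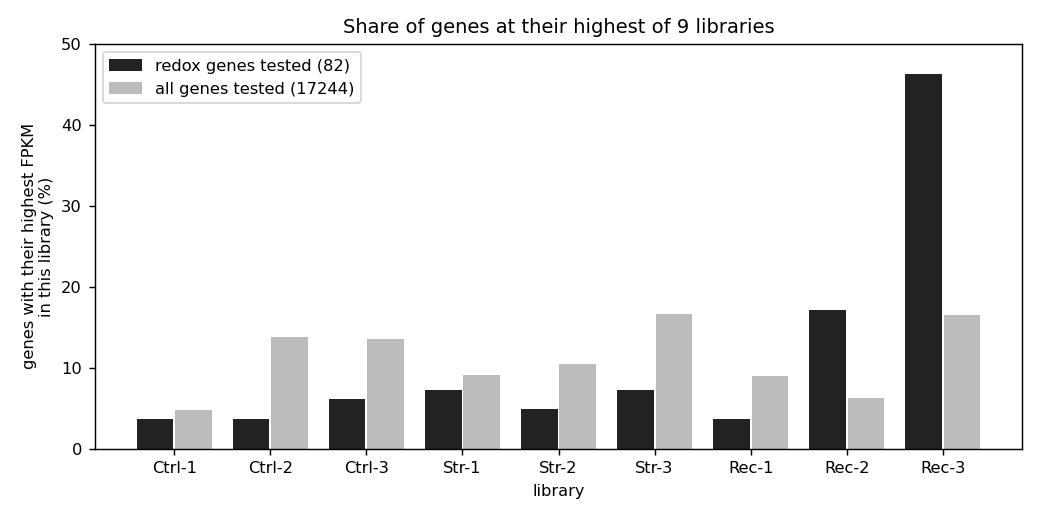
Percent of genes (y axis) whose highest FPKM of the 9 libraries was in the library named on the x axis, for the 82 redox genes tested (black bars) and all 17244 genes tested (grey bars). Rec-3 held the highest value of 46.3% of the redox genes and 16.5% of all genes, and Rec-2 that of 17.1% and 6.27%.

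Neighbouring pathways were read from 4 lists in the same fit, in which 5.88% of all genes were called in Str vs. Ctrl and 9.15% in Rec vs. Str. Of 16 tested loci of the NRF2 list (the transcription factor that drives many glutathione genes in mammals, with its partners and targets), 0 rose and 1 fell in Str vs. Ctrl, and 1 moved each way in Rec vs. Str (6.25% and 12.5% called). The heme oxygenase-like LOC113634503 was at 2.89, 2.65 and 1.03 FPKM in Ctrl, 4.31, 24.4 and 20.6 FPKM in Str, and 1.97, 0.323 and 0.543 FPKM in Rec. Its Str libraries were the 3 highest (log2 fold change 2.90, adjusted p = 0.0774, edgeR), and it fell by 4.03 in Rec vs. Str (adjusted p = 0.0281, up to 0.0871 without Str-3, and also lost without Str-2, Rec-2 or Rec-3). The partner *mafg* was at 3.69 to 4.11 FPKM in Ctrl and 1.35 to 1.70 FPKM in Str (log2 fold change -1.31, adjusted p = 0.0241, edgeR), a call lost without any 1 of the Ctrl libraries, Str-1 or Str-3 (up to 0.104). The quinone reductase *nqo1*, which rose in Rec vs. Str (adjusted p = 0.0471, up to 0.162 without Str-3, and lost in 8 of the 9 fits that left out a library, all but that without Rec-1), was at 111 FPKM in Rec-3 and at 18.9 and 21.5 FPKM in the other Rec libraries, and *nfe2l2* itself was at 60.1 to 116 FPKM in Str and 60.5 to 89.2 FPKM in Ctrl (adjusted p = 0.715).

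Of 11 tested loci of the ATF4 and amino acid response, 2 rose in Str vs. Ctrl, *chac1* and *ddit4* (18.2% called). In Rec vs. Str 1 fell, which was *chac1* again (9.09% called). As *chac1* is also a member that the rule named by symbol, these shares are not separate from those of the members. Apart from it, only *ddit4* was called. *ddit4*, a brake on growth signalling, was at 10.7 to 31 FPKM in Ctrl against 406 to 1645 FPKM in Str (adjusted p = 0.0222, edgeR, lost without Ctrl-2, Ctrl-3 or Str-3, up to 0.084). *atf4* was at 428 to 542 FPKM in Ctrl and 442 to 499 FPKM in Str (adjusted p = 0.956), and *ddit3* and *atf3* were not called. Both loci of asparagine synthetase, *asns*, stood higher in all Str libraries than in Ctrl without a call. They were at 3.28 to 7.55 against 0.581 to 1.21 FPKM (adjusted p = 0.0791, edgeR) and 1.18 to 1.84 against 0.274 to 0.842 FPKM (adjusted p = 0.247). *phgdh* (adjusted p = 0.122) and the sestrin-2-like LOC113661636 (adjusted p = 0.178) stood lower in all Str libraries. The transport of cystine, the oxidized form of the amino acid that limits glutathione synthesis, was not tested. *slc7a11* was at 0.261 FPKM or below in all libraries, and the cystine/glutamate transporter-like loci LOC113647386, LOC113645602 and LOC113645607 did not pass the filter, with LOC113647386 at 31.7 FPKM in Str-1, 12.6 FPKM in Ctrl-3 and at most 0.983 FPKM elsewhere.

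In the transsulfuration and methionine cycle, which supplies cysteine for glutathione, 2 of 21 rose in Str vs. Ctrl, and 1 rose while 2 fell in Rec vs. Str (9.52% and 14.3% called). *cbs*, its first enzyme, was at 2.83 to 3.25 FPKM in Ctrl, at least 7.06 FPKM in Str and 1.94 to 3.14 FPKM in Rec. It rose in Str vs. Ctrl (log2 fold change 1.56, adjusted p = 0.015, edgeR, lost without Ctrl-2, Ctrl-3, Str-1 or Str-3, up to 0.0727) and fell in Rec vs. Str (-1.73, adjusted p = 0.00977). The second was the betaine-homocysteine methyltransferase LOC113646449, which remakes methionine and is abundant in mammalian liver, at 7.99 to 11.3 FPKM in Str and at most 1.76 FPKM elsewhere (the rise was lost without Ctrl-2, Ctrl-3 or Str-3, adjusted p up to 0.0562, edgeR). Summed liver markers were also highest in Str, mostly through *fgg* and 1 alpha-2-HS-glycoprotein-like locus, and *fga* was higher in all Str libraries than in Ctrl. The 6 liver genes at 0.388 FPKM or below in all libraries were picked after the values were seen. The part of liver tissue in this result was not tested. Of 22 tested loci of iron and heme handling, 1 rose and 1 fell in Str vs. Ctrl, against 2 that rose and 3 that fell in Rec vs. Str (9.09% and 22.7% called). The rise in Str vs. Ctrl was *steap4*, a metalloreductase, which was at 0.787 to 2.13 FPKM in Ctrl against 21.6 to 38.1 FPKM in Str (adjusted p = 0.00399).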

How the data were processed

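Total RNA of posterior intestine from 3 fish per group (Ctrl, Str, Rec) was sequenced on the Illumina NovaSeq platform. Trimming by the authors used Cutadapt 1.9, and reads were mapped to the genome of the yellow catfish. The submitters' processing notes name HISAT and StringTie without a version. For the build, the strand setting and the making of counts, nothing is given in the sources used here. For every gene and library, the authors deposited an FPKM value, scaled to gene length and library depth, and an expected count. The deposited expected counts are whole numbers, so no rounding was needed. Their small values peak at 4, 8 and 12, so 1 pair is mostly worth 4 counts.

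The main test was edgeR 4.0.16 (quasi-likelihood F-test, two-sided, TMM scaling, all 9 libraries in 1 fit) on the 17244 genes that reached 1 FPKM in 3 or more libraries. Standard errors are the absolute log2 fold change over the square root of F. p-values were adjusted over all genes tested. FPKM values are printed as deposited, without TMM. With 3 fish per group, p-values rest on few animals and could include effects of a shared bag. Groups come from the labels.

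Members, roles and gene lists were chosen with earlier results of these data known. Roles were completed after the products had been read. Genes named by rule were *chac1*, *msrb2*, the 12 largest rises and falls by mean log2(FPKM + 1) among called members, and the most abundant member and the one with the smallest 3-group p in each role. Other members are named to account for the set, and 1 is not reported here. Alternatives were RLE scaling, DESeq2 1.42.0, limma 3.58.1 on log2(FPKM + 1) and log2(FPKM + 0.1), no filter, 2 groups only, a replicate block, counts divided by 4, the study's thresholds, other member sets and leaving out each library. The script was tested on simulated data. Sequences and promoter motifs were not analysed here. Software was R 4.3.3 and Python 3.11.15.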

Additional observations from a re-analysis of the deposited data

How the results depend on the processing

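RLE scaling, no filter, counts divided by 4 and leaving out merged loci kept every count of members within 1.5 times, as did limma on log2(FPKM + 0.1). DESeq2 called 8 that rose and 8 that fell in Str vs. Ctrl, 25 and 8 in Rec vs. Str, and 4 that rose against Ctrl (14.7%, 18.5% and 0.667% of all genes). At an absolute log2 fold change of 1 and an unadjusted p below 0.05, 6 rose and 11 fell in Str vs. Ctrl, 29 rose in Rec vs. Str, and 14 rose and 1 fell against Ctrl. In fits of only 2 groups, 6 rose and 2 fell in Rec vs. Str. Over all genes, 380 rose and 297 fell there, down from 868 and 709. Limma on log2(FPKM + 1) gave 8 that fell in Rec vs. Str (904 of all genes) and moved the members' median log2 fold change to 0.36. With KEGG members only, 3 fell in Str vs. Ctrl, and 9 rose while 2 fell in Rec vs. Str, by construction from fewer members. The median in Rec vs. Str was 0.91, against 0.60 over all members tested, and depends on which genes are kept. Leaving out each library gave 1 to 4 that rose and 1 to 6 that fell in Str vs. Ctrl, 4 to 21 and 1 to 5 in Rec vs. Str, and 0 for Rec against Ctrl. Over all genes these fits gave 66 to 685 that rose and 39 to 738 that fell in Str vs. Ctrl. In Rec vs. Str they gave 114 to 846 and 133 to 692. The members' medians ran from -0.30 to -0.051 (without Ctrl-1), 0.36 to 0.90 and 0.13 to 0.56. Fits without a library hold fewer fish by construction, and the cause of the other changes was not tested. Deviations of libraries with the same replicate number correlated between -0.26 and 0.19, and those with different numbers between -0.31 and 0.30. The numbers thus showed no sign of pairing, but with 3 libraries per group this cannot exclude a shared bag. With the replicate block, 1 rose and 3 fell in Str vs. Ctrl, against 10 that rose and 4 that fell in Rec vs. Str. Over all genes the block gave 289 and 334 in Str vs. Ctrl, and 518 and 375 in Rec vs. Str. The promoter motif search was not run. The fold changes of *msrb2* rest on few reads in Str, where each library held fewer than 3 read pairs at total counts of 48605412 to 60279138.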
